A study of Homo sapiens with 34 samples.

Results

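In the SW872 liposarcoma line, 1653 genomic regions were bound in the YAP-TFE3 peak list and in none of the 5 other Flag construct lists. The regions were found by merging all peaks that overlapped by at least 1 bp on chromosomes 1 to 22 and X of the 6 construct lists, and by keeping each merged region that held a YAP-TFE3 peak and no peak of YAP5SA, TFE3, TAZ4SA, TAZ-CAMTA1 or CAMTA1. They made up 25.3% of the 6543 merged regions of all lists. Each held 1 YAP-TFE3 peak, so they were also 1653 of the 3336 YAP-TFE3 peaks on chromosomes, or 49.6%. The regions were chosen by the presence or absence of a called peak in each list, so their number is a description and carries no test.

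YAP is a transcriptional co-activator without a DNA binding domain of its own, and its amino terminus contacts DNA through the TEAD family of transcription factors. TFE3 belongs to the MiTF/TFE family of basic helix-loop-helix leucine zipper factors, which bind E-box and M-box elements and control genes of the lysosome. The YAP-TFE3 fusion of epithelioid hemangioendothelioma, a vascular sarcoma, joins the amino terminus of YAP to much of TFE3, so that the protein keeps the TEAD contact of one parent and the DNA binding domain of the other.

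The cells were SW872 from ATCC, stably transduced with a pBabeNeo retroviral vector and selected as pooled lines, each carrying 1 Flag-tagged construct or the empty vector (EV). YAP5SA and TAZ4SA are the full-length proteins with alanine in place of the serines that the LATS kinases phosphorylate, and TFE3 and CAMTA1 are the full-length partners of the fusions YAP-TFE3 and TAZ-CAMTA1. The 34 libraries were 18 Flag immunoprecipitations, 3 of each construct, with 14 inputs and 2 IgG immunoprecipitations from EV cells. The sources differ on the growth of the CAMTA1 cells, which the sample descriptions place below confluence and the study's methods near it. The proteins were expressed from a vector in a line that does not come from epithelioid hemangioendothelioma, which limits the cells as a model.

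The replicates of a construct were pooled before peaks were called, so no value below has a spread between replicates, and a difference between lists compares pooled lists and not conditions. Shares are given with 95% Wilson intervals, which cover counting error and treat neighbouring regions as independent. The lists differed in size and depth. YAP5SA had 3754 peaks on chromosomes, TFE3 299, TAZ4SA 1166, TAZ-CAMTA1 1184 and CAMTA1 156. The mean fragment coverage recovered from the peak values was 10.5 fragments per base for YAP-TFE3, 10.7 for YAP5SA and 8.61 for TFE3, against 2.21 to 2.52 for TAZ4SA, TAZ-CAMTA1 and CAMTA1. The caller scored peaks after bringing each immunoprecipitation to the depth of its control, and this narrowed the gap. After that scaling, the lowest background was 3.73 fragments in the YAP-TFE3 list, 3.28 in YAP5SA and 3.06 in TFE3. The 3 shallower lists had a scaling of 1, and their lowest backgrounds stayed at 2.21 to 2.52. Absence from these 3 was thus scored at a lower coverage than presence in the YAP-TFE3 list, but by less than the unscaled coverages show. The EV IgG list held 4 peaks on chromosomes, and 0 of the 1653 regions overlapped one. With so few control peaks this count was nearly fixed in advance, and nothing is read from it.

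The strongest region found only with YAP-TFE3 lay at chr20:49056698-49057458 (GRCh37), was 761 bp wide, and had 217 fragments at its summit. Its fold enrichment, the authors' ratio of the pileup of fragments over the background around the site, was 16.5, and its −log10 q was 66.4. It was peak 11 of the YAP-TFE3 list by q, so that the 10 strongest YAP-TFE3 peaks all overlapped a peak of another construct. The nearest peak of another construct was a YAP5SA peak 51.9 kb away, and the nearest TFE3 peak was 110 kb away.

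The next regions by q stood clear of the bulk of the set. The region at chr16:81214634-81215299 had a fold enrichment of 12.8 with 168 fragments, and the nearest YAP5SA peak was 53.8 kb away. The region at chr20:25603715-25605129, at 1415 bp among the widest, had 12.4 with 162 fragments, and the nearest peak of another construct, from TAZ4SA, was 215 kb away. The region at chr5:39399421-39399891 had 11.4 with 149 fragments. With the first, these 3 regions held the 4 highest fold enrichments among the regions found only with YAP-TFE3, and each of the 4 was over 20 kb from a peak of any other construct.

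Other strong regions differed in the company they kept. The region at chr3:57741798-57742248 had a fold enrichment of 10.8 with 141 fragments, and a TAZ-CAMTA1 peak lay 461 bp from its edge. The region at chr19:50608214-50608628 had 171 fragments and a YAP5SA peak 2.58 kb away. Its fold enrichment was 7.74 over a local background of 7 scaled fragments, where the lowest background of the list was 3.73. Scaled fragments are fragments after the caller brought the immunoprecipitation to the depth of its control. These were the only 2 of the 10 strongest regions with another construct's peak within 10 kb.

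The remaining 4 of the 10 lay farther out. The region at chr5:34655658-34656459 had a fold enrichment of 8.79 over a raised background of 6 and was 27.4 kb from a YAP5SA peak. The region at chr19:49137741-49138375 had 10.7 with the nearest peak of another list, from TFE3, 319 kb away. The region at chr16:66642522-66643201 had 10.6 and was 92.5 kb from a YAP5SA peak. The region at chr12:123431278-123431672 had 10.4 and was 267 kb from a YAP5SA peak. In all, 8 of the 10 were over 10 kb from another construct's peak, 8 of the 10 stood on the lowest background, and the 10 fell on 6 chromosomes.

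At the other end of the set, the weakest region by q, chr5:130639017-130639236, had a −log10 q of 1.01 and a fold enrichment of 2.71. The next were chr5:32506960-32507203, with a −log10 q of 1.04, and chr5:5350343-5350571, with 1.06. All 3 were on chromosome 5 and on a background above the lowest, at 5.41, 3.82 and 4.31 scaled fragments. The widest region, chr1:144987163-144988625, spanned 1463 bp with a fold enrichment of 3.61, so the widest was not among the strong.

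Over the whole set, the regions found only with YAP-TFE3 were on the weak side of their list. Their median fold enrichment was 4.05 (95% interval of the median 3.97 to 4.12, n = 1653), against 4.42 for all 3336 YAP-TFE3 peaks, with quartiles of 3.52 and 4.80 and extremes of 1.41 and 16.5. Their median summit held 54 fragments, with quartiles of 47 and 65, where the least that was called on the lowest background was 37. Their median −log10 q was 3.94, and their median width was 299 bp, from 196 to 1463 bp.

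The YAP-TFE3 peaks that another list shared were stronger by each of these measures. The 1289 peaks shared with YAP5SA and not TFE3 had a median fold enrichment of 4.80 (4.72 to 4.95), and the 145 shared with TFE3 and not YAP5SA had 5.78 (5.33 to 6.0). The 91 peaks shared with both parents had 8.37 (6.83 to 9.76), and the 158 shared with TAZ4SA, TAZ-CAMTA1 or CAMTA1 alone had 4.42 (4.27 to 4.60). These intervals treat the peaks of a pooled list as independent and hold no spread between replicates. They describe each group of peaks and give no test between the groups. Median widths followed the same order at the ends, from 299 bp for the YAP-TFE3-only regions through 368, 393 and 394 bp to 620 bp for peaks shared with both parents. The rule drops what any other list also detects, and its part in the lower strength was not tested.

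**Figure D1:**
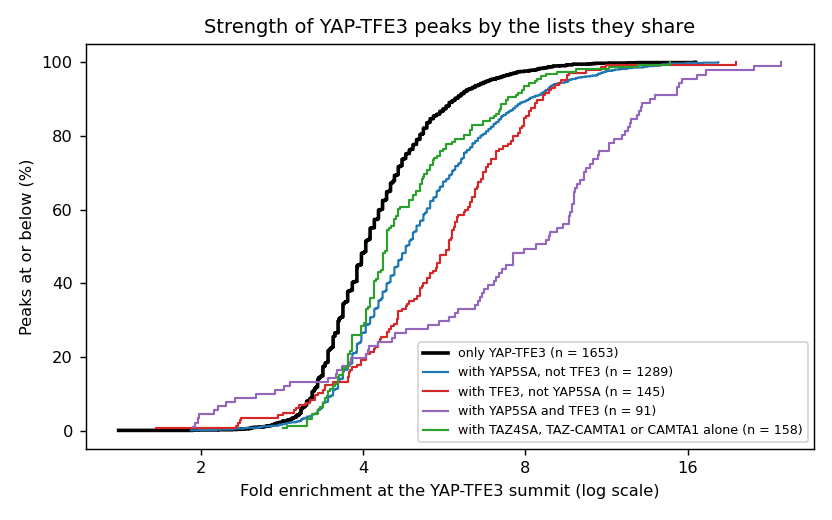
Cumulative share of YAP-TFE3 peaks (vertical axis, percent) at or below each fold enrichment at the summit (horizontal axis, log scale), by which other lists hold an overlapping peak. The curve of the 1653 regions found only with YAP-TFE3 lies to the left of the others over most of its length, with its midpoint at 4.05 against 4.80 for peaks shared with YAP5SA and 8.37 for peaks shared with both parents.

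The share of YAP-TFE3-only regions rose down the YAP-TFE3 list, here cut by q into 4 blocks of 834 peaks. In the block with the strongest q, 211 of 834 peaks (25.3%, 22.5 to 28.4) were in no other list. The next blocks held 46.6% (43.3 to 50.04) and 57.0% (53.6 to 60.3). In the weakest block, 578 of 834 peaks (69.3%, 66.1 to 72.3) were. Among the 10 strongest peaks there were 0, among the strongest 100 there were 8, and among the strongest 500 there were 97.

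Even so, 1430 of the 1653 regions (86.5%, 84.8 to 88.1) had a q below 0.01, beside 90.9% of all YAP-TFE3 peaks. A fold enrichment of 8 or more was found in 39 of them (2.36%, 1.73 to 3.21), beside 7.58% of all. At the low end, 3 (0.181%, 0.0617 to 0.532) had a fold enrichment below 2, beside 0.3% of all YAP-TFE3 peaks. These 3 lay where the background was far above the lowest of the list. The one at chr11:3675500-3675714 had 421 fragments, the most of any YAP-TFE3-only region, over a background of 106, which was 28.4 times the lowest, and its fold enrichment was 1.41.

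Neighbouring peaks of the other lists were usually far away. The median distance from a YAP-TFE3-only region to the nearest peak of any other construct was 64.6 kb, with quartiles of 15.3 and 208 kb. A peak of another construct lay within 1 kb of 91 regions (5.51%, 4.51 to 6.71) and within 10 kb of 317 (19.2%, 17.4 to 21.1). For all YAP-TFE3 peaks, the share with another construct's peak that did not overlap within 10 kb was 25%. It was 35.1% (32.5 to 37.7) for peaks shared with YAP5SA and not TFE3, and 10.3% (6.37 to 16.4) for peaks shared with TFE3 and not YAP5SA.

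By list, YAP5SA was the nearest. Its peaks were at a median of 92.5 kb, and 258 regions (15.6%, 13.9 to 17.4) had one within 10 kb. For TAZ-CAMTA1 the median was 309 kb, with 89 regions (5.38%, 4.40 to 6.58) within 10 kb, and for TAZ4SA it was 364 kb, with 85 regions (5.14%, 4.18 to 6.31). TFE3 peaks were at a median of 1867 kb and within 10 kb of 28 regions (1.69%, 1.17 to 2.44), and CAMTA1 peaks at 4327 kb and within 10 kb of 10. For TFE3 and for CAMTA1, the median covers the 1631 regions with a peak of that list on their chromosome. The shares are of all 1653 regions. The nearest list was YAP5SA for 1028 regions (62.2%), TAZ-CAMTA1 for 256, TAZ4SA for 173, TFE3 for 134 and CAMTA1 for 62. The medians fell in the reverse order of the number of peaks in the lists, and the part of list size in them was not tested.

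**Figure D2:**
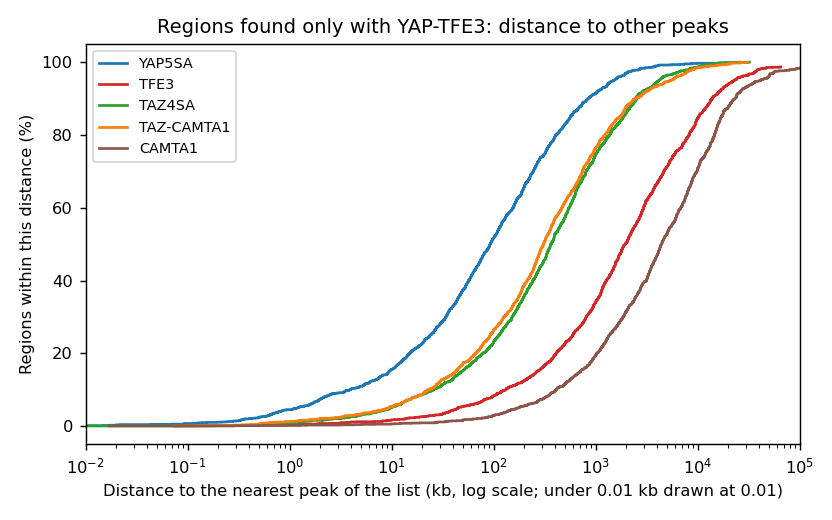
Share of the 1653 regions found only with YAP-TFE3 (vertical axis, percent) that have a peak of each other list within the distance on the horizontal axis (kb, log scale). The YAP5SA curve is highest at nearly every distance and crosses 10 kb at 15.6%, against 1.69% for TFE3 and 0.605% for CAMTA1.

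The regions closest to another construct's peak were the weaker ones. The 91 regions within 1 kb had a median fold enrichment of 3.52 (3.45 to 3.67), and 1 of them had a fold enrichment of 8 or more. The 226 regions at 1 to 10 kb had 3.94 (3.75 to 4.05), and the 672 regions over 100 kb away had 4.12 (4.05 to 4.27). The background moved with the distance. It was above the lowest of the list in 41.8% (32.2 to 52.0) of the regions within 1 kb and in 17.9% (15.1 to 20.9) of those over 100 kb away, and its part in the difference in fold enrichment was not tested.

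The edge of the rule passed through near misses. The region closest to another construct's peak without overlap, chr3:45166080-45166305, touched it with a gap of 0 bp and had a fold enrichment of 3.90. Gaps of 2, 8, 15 and 17 bp followed, with fold enrichments from 3.20 to 4.97. On the other side, the peak at chr5:171529823-171530084 overlapped a TAZ-CAMTA1 peak by 1 bp, had a fold enrichment of 3.97 and was left out. The next overlaps were 3, 13, 18 and 24 bp, all with YAP5SA peaks. In all, 16 YAP-TFE3-only regions lay within 100 bp of another construct's peak, and 28 shared regions overlapped by no more than 100 bp.

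A peak call depends on the depth of a list and on its p threshold, so each YAP-TFE3 summit was also set against the weakest peak of each other list. For this, the ratio of summit fragments to background in the YAP-TFE3 list was carried over to the coverage and scaling of the other list. This ratio, unlike the fold enrichment, adds nothing to either term. The −log10 p that the caller would give such a summit was then computed. At equal enrichment, 1615 of the 1653 regions (97.7%, 96.9 to 98.3) would equal or pass the weakest YAP5SA peak, beside 98.7% of all YAP-TFE3 peaks. For TFE3 it was 1257 (76.0%, 73.9 to 78.0), beside 83.6% of all. The YAP5SA share was nearly fixed in advance, since the weakest YAP-TFE3 peak had a −log10 p of 4.29 and the weakest YAP5SA peak 4.21 at nearly equal coverage, and nothing is read from it.

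The same was computed for the 3 shallower lists. The regions that would equal or pass the weakest peak were 1190 for TAZ-CAMTA1 (72.0%, 69.8 to 74.1), beside 80.5% of all YAP-TFE3 peaks, and 965 for TAZ4SA (58.4%, 56.0 to 60.7), beside 69.5%. For CAMTA1 they were 629 (38.1%, 35.7 to 40.4), beside 51.7%. These 629 were also the regions that would equal or pass the weakest peak in all 5 lists. The weakest peak differed between lists of like coverage, with a −log10 p of 5.42 in CAMTA1 and 4.67 in TAZ4SA, so depth and the p threshold of a list were not separated in these shares. The computation uses the summit value and not the minimum length that the caller also asks of a peak.

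For the strongest regions the computed values were far above the weakest peaks. At equal enrichment the region at chr20:49056698-49057458 would have had a −log10 p of 62.7 in the YAP5SA list, 59.4 in TFE3 and 42.8 in CAMTA1. The tenth, chr19:50608214-50608628, would have had 31.4 in YAP5SA, 29.01 in TFE3 and 22.02 in CAMTA1. The weakest peaks of those lists had 4.21, 5.21 and 5.42. These regions had the highest q of the set, and the enrichment at them in the other lists was not measured here.

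A wider margin was also counted. Of the 1230 regions on the lowest background, 126 (10.2%) had a summit of at least 2 times the least ratio of fragments to mean coverage that was called in the YAP5SA list, beside 21.1% of the 2488 YAP-TFE3 peaks on that background. Against the least ratio of the YAP-TFE3 list itself it was 158 (12.8%), beside 24.5%, so the YAP5SA count was near that of the list's own threshold. For TFE3 it was 63 (5.12%), beside 12.3%, and for TAZ-CAMTA1 65 (5.28%), beside 12.9%. For TAZ4SA it was 42 (3.41%), beside 9.45%, and for CAMTA1 37 (3.01%), beside 8.04%. The signal of the other lists at these 1230 regions was not measured here, and regions on a raised background were left out of these counts.

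**Figure D3:**
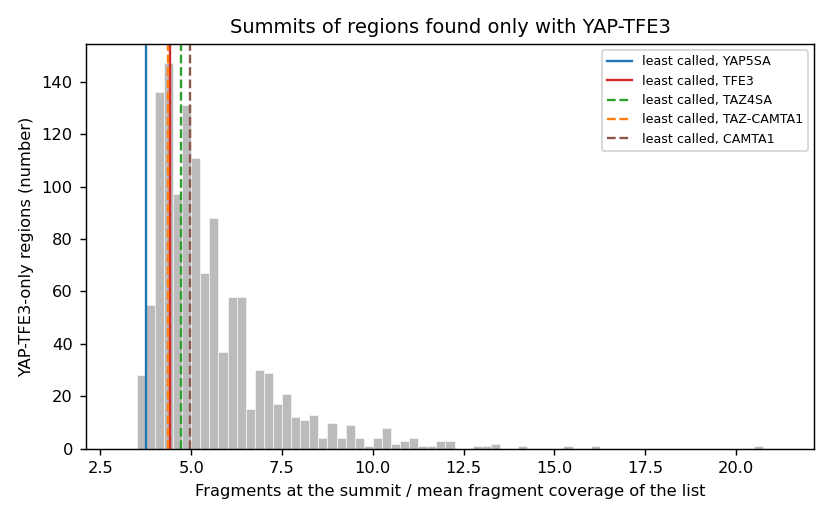
Number of YAP-TFE3-only regions on the lowest background (vertical axis, n = 1230) by summit fragments divided by the mean fragment coverage of the list (horizontal axis, no unit). The vertical lines mark the least such ratio called on the lowest background in each other list, from 3.74 in YAP5SA and 4.36 in TAZ-CAMTA1 to 4.97 in CAMTA1, and 1202 of the 1230 regions lie at or above the YAP5SA line against 636 at or above the CAMTA1 line.

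Most regions stood alone. Chained with gaps of up to 10 kb, 1355 of the 1653 regions (82.0%, 80.0 to 83.8) had no other YAP-TFE3 peak in their chain. Another 132 (7.99%, 6.77 to 9.39) were in chains made of YAP-TFE3-only regions, and 166 (10.04%, 8.68 to 11.6) were in chains with at least 1 shared peak, a share that was 16.1% with gaps of up to 20 kb. Another YAP-TFE3 peak lay within 10 kb of 298 of them (18.03%, 16.2 to 19.95), beside 21% of all YAP-TFE3 peaks, and the same share was 26.7% (24.3 to 29.2) among peaks shared with YAP5SA and not TFE3. The 299 chains of 2 or more peaks were 63 of YAP-TFE3-only regions, 137 of both kinds and 99 of shared peaks.

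The chains with the most YAP-TFE3-only regions were 2 on chromosome 19. The first, chr19:48407466-48460981, held 14 YAP-TFE3 peaks over 53.5 kb, of which 7 were in no other list, alongside 9 YAP5SA peaks and 2 TFE3 peaks. Its 7 YAP-TFE3-only regions had fold enrichments from 2.41 to 3.66, and a peak shared with YAP5SA at chr19:48423488-48424270 had 18.2 with 253 fragments. The strongest peak of the chain was thus a shared one, and none of its YAP-TFE3-only regions, over backgrounds of 4.04 to 13 scaled fragments, passed a fold enrichment of 3.66.

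The second, chr19:50594998-50618037, held 13 YAP-TFE3 peaks over 23.04 kb, of which 7 were in no other list, alongside 6 YAP5SA peaks and 0 TFE3 peaks. Here the strongest peak of the chain was a YAP-TFE3-only region, chr19:50608214-50608628, with 7.74, and the other YAP-TFE3-only regions had 2.64 to 4.59. The backgrounds in it ran from 4 to 14 scaled fragments. After these, 3 chains held 4 YAP-TFE3-only regions each. The one with the most peaks, chr1:145029307-145040264, held 5 peaks over 10.96 kb, 1 of them shared with TFE3, and its YAP-TFE3-only regions had fold enrichments of 2.74 to 3.97. The others, chr20:48902263-48917226 and chr5:139030854-139039767, were made of 4 YAP-TFE3-only regions.

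**Figure D4:**
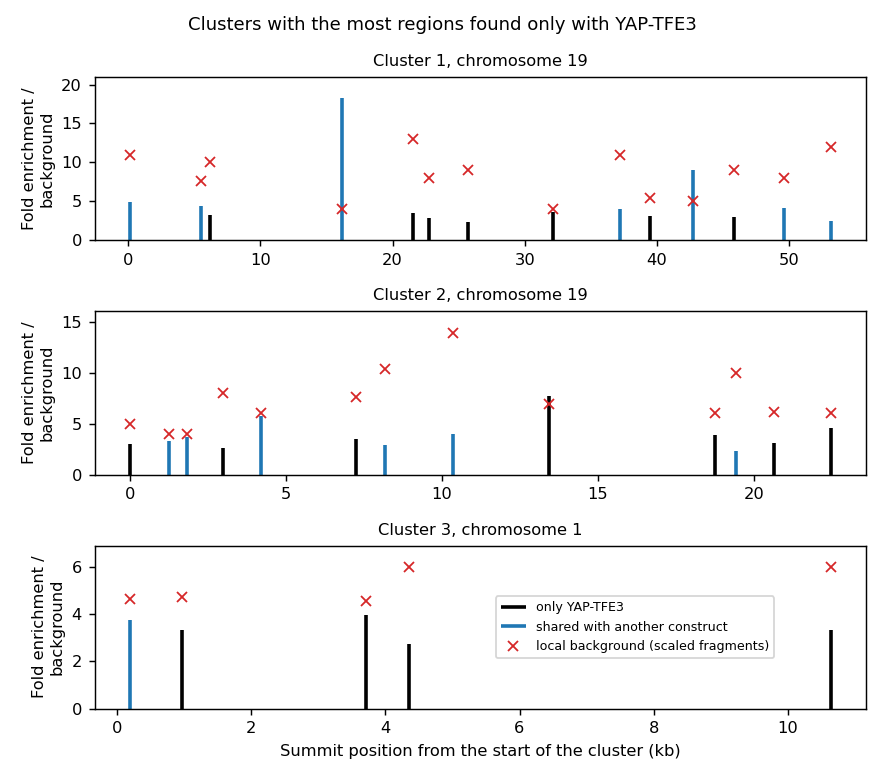
Fold enrichment of each YAP-TFE3 peak (bars) and its local background in scaled fragments (crosses) by summit position from the start of the chain (kb), for 2 chains on chromosome 19 and 1 on chromosome 1. In the first chain the black bars of the 7 YAP-TFE3-only regions stay at or below 3.66 beside a shared peak of 18.2, in the second a YAP-TFE3-only region of 7.74 is the tallest, and all crosses lie above the lowest background of 3.73.

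Regions in chains stood on higher backgrounds than regions alone. The background was above the lowest in 114 of the 298 YAP-TFE3-only regions in chains (38.3%, 32.9 to 43.9) and in 309 of the 1355 alone (22.8%, 20.6 to 25.1). Their median fold enrichments were 3.69 (3.60 to 3.90) and 4.12 (4.05 to 4.20). Shared peaks showed the same order of backgrounds, with 32.9% (28.5 to 37.7) in chains and 22.9% (20.6 to 25.2) alone. The part of the background in the lower fold enrichment of regions in chains was not tested.

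Over all regions, 423 of 1653 (25.6%, 23.5 to 27.7) stood above the lowest background, beside 25.4% of all YAP-TFE3 peaks, so the YAP-TFE3-only regions and the list as a whole had nearly the same share. The median fold enrichment was 3.55 (3.47 to 3.62) above the lowest background and 4.20 (4.12 to 4.27) on it. A background of at least 2 times the lowest was found in 37 regions (2.24%, 1.63 to 3.07), beside 59 of the shared YAP-TFE3 peaks (3.51%, 2.73 to 4.50).

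The regions were found on chromosomes 1 to 22 and on X. Chromosome 5 held the most, 269 of its 534 YAP-TFE3 peaks (50.4%, 46.1 to 54.6), followed by chromosome 7 with 143, chromosome 20 with 126 of 269 (46.8%, 41.0 to 52.8) and chromosome 11 with 120 of 279 (43.0%, 37.3 to 48.9). The share of a chromosome's YAP-TFE3 peaks that no other list held ran from 43.0% (35.1 to 51.2) on chromosome 16 to 66.7% (56.6 to 75.4) on chromosome 6, where it was 62 of 93. Chromosome 6 and chromosome 11 were the chromosomes whose intervals did not hold the 49.6% of the whole list, and the chromosomes were not tested against each other.

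The background differed between chromosomes by more than the share did. On chromosome 13, 37 of 46 YAP-TFE3-only regions (80.4%, 66.8 to 89.3) stood above the lowest background, and on chromosome 5 it was 133 of 269 (49.4%, 43.5 to 55.4). Off these chromosomes it was 253 of 1338 (18.9%), and on chromosome 12 it was 1 of 49. The shared peaks of chromosome 13 had 79.6% and those of chromosome 5 had 47.9%. The raised background of both chromosomes was thus found in shared and YAP-TFE3-only regions alike, and the median fold enrichment of the YAP-TFE3-only regions was 3.50 on chromosome 13 and 3.60 on chromosome 5, against 4.14 off both.

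On chromosome 13 the raised background covered a block. Between 90 and 100 Mb, 24 of 26 YAP-TFE3-only regions stood above the lowest background, at a median of 5.05 scaled fragments, and between 100 and 110 Mb it was 13 of 14, at 4.53. The 6 regions elsewhere on the chromosome all stood on the lowest background. On chromosome 5 the share was highest in the first 10 Mb, at 15 of 17, with a median of 4.31 scaled fragments. In the other windows of 10 Mb it ran from 0 of 6, between 170 and 180 Mb, to 2 of 3, between 160 and 170 Mb. Over the chromosome, the median background of the YAP-TFE3-only regions was 3.73 scaled fragments, the same as the lowest. A background only slightly over the lowest also counted as above it.

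**Figure D5:**
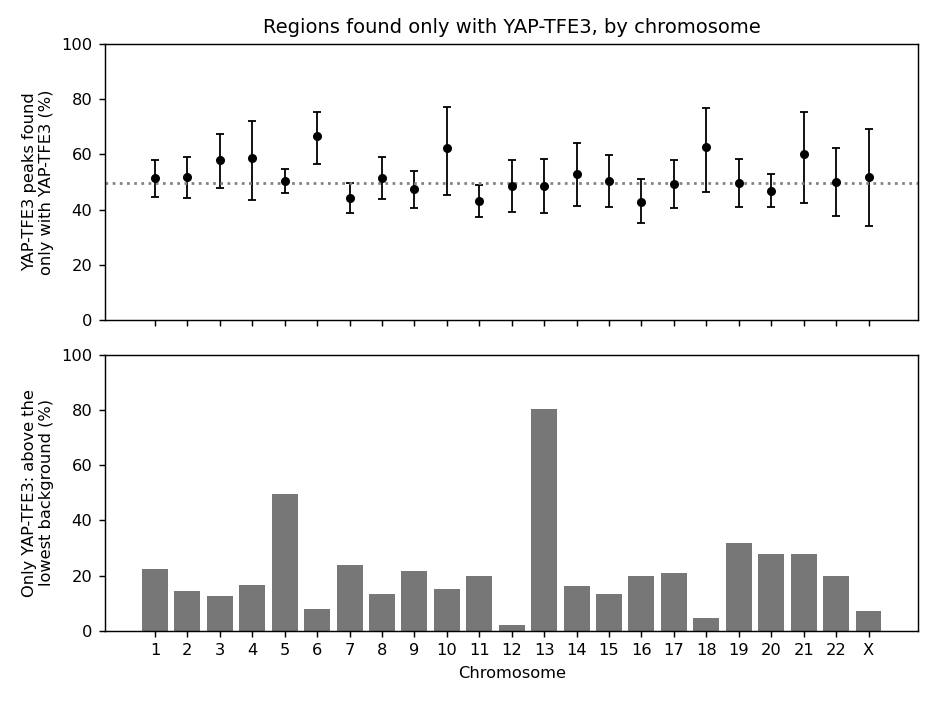
Top, share of each chromosome's YAP-TFE3 peaks that were found only with YAP-TFE3 (percent, points with 95% Wilson intervals; the dotted line is 49.6%). Bottom, share of the YAP-TFE3-only regions that stood above the lowest background (percent, bars from 0). The top shares lie between 43.0% and 66.7%, while in the bottom panel chromosome 13 reaches 80.4% and chromosome 5 reaches 49.4%.

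At a finer scale the regions were thinly spread. A YAP-TFE3-only region was found in 872 windows of 1 Mb, of which 479 held 1 such region. The 55 windows with 5 or more held 340 regions (20.6%). The densest was on chromosome 20 from 48 to 49 Mb, where 13 of 18 YAP-TFE3 peaks were in no other list, and it held the chain of 4 at chr20:48902263-48917226. The next were 10 of 20 peaks on chromosome 19 from 50 to 51 Mb, 10 of 18 on chromosome 5 from 38 to 39 Mb and 10 of 17 on chromosome 5 from 14 to 15 Mb.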

How the data were processed

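Flag chromatin immunoprecipitations of 6 constructs in SW872 cells, with inputs and EV IgG controls, were sequenced by the authors. Per the study's methods, the authors pooled the reads of replicates, trimmed them with Atropos, aligned them to GRCh37 with BWA-MEM, removed multiply placed and greylisted reads, and called peaks with macs2 at a permissive q (highest deposited q 0.0993). The deposited values are peak positions, the fold enrichment (a ratio of pileup to local background) and p-values and q-values as −log10. A display score was not used, and 0 value columns lacked a group. Which control libraries set each background is not given in the sources used here.

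The submitters' processing notes name bcl2fastq and hg38. Of 10414 deposited peaks, 45 ended past the end of the GRCh38 chromosome, 7 of them YAP-TFE3-only regions, so the coordinates were read as GRCh37. The supplied reference was GRCh38. Nearest genes, gene lists, motif content and sequences, though planned, were therefore not analysed here.

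Samples were grouped by their descriptions. The regions, lists and thresholds were chosen with earlier results of these data known. Positions are 1-based. Regions were named by rule: the 10 highest by q, the 5 highest by fold enrichment (all among the former), the 3 weakest by q, the widest, and the 3 chains with the most YAP-TFE3-only regions (ties by number of peaks). The other chains, the near misses at the edge of the rule, the region of lowest fold enrichment, and the windows and chromosomes were singled out after their values were seen. Python 3.11.15, pandas 2.3.3 and numpy 2.4.6 were used. Summit fragments, scaling and background were solved from the deposited fold enrichment and −log10 p-value, taking fragments as whole; all 3336 YAP-TFE3 peaks had a single solution, and 98.1% to 99.9% in the other lists. Mean coverage is the lowest background divided by the scaling, assuming that the lowest background is the genome mean. Tested on 400 simulated YAP-TFE3 peaks, the recovery was right in 100%. The simulation used the same formula and scaling as the recovery, so it checks the arithmetic and not how the caller made the values. No test of significance was run, since 1 pooled list per construct leaves no replicates. Alternatives were other overlap rules, stricter q, other chain gaps, and scaffolds included.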

Additional observations from a re-analysis of the deposited data

Results flagged for a closer look

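Outside the chromosomes, 37 regions on unplaced GRCh37 scaffolds held a YAP-TFE3 peak and no peak of another construct, of 147 scaffold peaks in the YAP-TFE3 list. They are listed because they lie in data that the comparisons above leave out. They lay on 16 scaffolds, of which 5 also held EV IgG peaks elsewhere. The EV IgG list held few peaks there, 25 on scaffolds in all. Of the 37 regions, 0 overlapped one, and nothing is read from that count. The fold enrichments of the 37 regions ran from 1.46 to 4.83, with a median of 2.96, where the regions on chromosomes had a median of 4.05.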

How the results depend on the processing

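Of 22 recomputed values over 7 results, 14 stayed within 1.5 times (the count) or within their 95% interval, and 8 moved. The number of YAP-TFE3-only regions was 1653 and ran from 1430, with q below 0.01 asked of YAP-TFE3 peaks, to 2002, when sharing needed 50% reciprocal overlap. It was 1586 when gaps of up to 500 bp counted as shared, 1725 with q below 0.01 asked of the 5 other lists, 1815 against YAP5SA and TFE3 alone, and 1690 with scaffolds included, a setting chosen after the data were seen. With q below 0.01 in the YAP-TFE3 list, the median fold enrichment moved to 4.20, the median width to 308 bp, the share on chromosome 5 to 43.8% and the share in chains with a shared peak to 8.67%. The median width was 306.5 bp under reciprocal overlap. The share in chains with a shared peak was 16.1% with gaps of 20 kb and 7.14% with 5 kb. The share within 10 kb of another construct's peak was 16.3% with gaps of 500 bp counted as shared. These changes follow from which regions each setting keeps or joins.

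No paired analysis was possible because each construct has 1 list called on pooled replicates, and leaving out a replicate was likewise not possible. Alternatives for motif windows and for nearest genes were not run, since no GRCh37 genome was used here. The share of YAP-TFE3-only regions that would equal or pass the weakest peak of another list at equal enrichment was lowest for CAMTA1, at 38.1%.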
